A study of Mus musculus with 4 samples.

Results

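The endothelin system of the mouse dorsal root ganglion (DRG) was described through 5 genes, the receptors *Ednrb* and *Ednra*, the ligand genes *Edn1* and *Edn3*, and *Ece1*, which encodes an endothelin-converting enzyme. They were taken by symbol from the 33456 gene rows of the count matrices, and each symbol had 1 row. The libraries were made by droplet single cell RNA-seq, where a unique molecular identifier (UMI) tags each captured molecule, from dissociated and sorted DRG cells of C57BL/6 mice aged 8 to 12 weeks, all female according to the methods. There were 2 libraries of naïve ganglia (control 1 and control 2) and 2 of ganglia taken 3 days after a crush of the sciatic nerve (injury 1 and injury 2). The labels name L4 ganglia and no transgene, and the methods L4 and L5. The study counts 2 biological replicates, each batch pooled from 5 mice, so that the p-values below measure the spread between pools and not between animals.

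Endothelins are short peptides cut from larger precursors. Endothelin-converting enzymes make the last cut, and the mature peptides act on 2 receptors that couple to G proteins. Receptor A on vascular smooth muscle drives contraction and binds endothelin-1 better than endothelin-3, whereas receptor B binds both alike, is found on glia and endothelium, and also clears the peptide. Endothelin-3 and receptor B are best known for guiding neural crest cells, the embryonic source of the neurons, glia and melanocytes of the periphery. In sensory ganglia, satellite glial cells (SGC) wrap the neuron bodies, and receptor B is a known feature of glia of this kind.

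After the limits on UMIs, genes and mitochondrial share given in the methods, 6095 of 6975 barcodes remained, between 1076 and 2377 per library, with 4.29e+06 to 9.14e+06 UMIs per library. The matrices hold no cell names, so a cell was given a type when at least 3 of 7 markers of that type were detected and its marker score led that of every other type by 0.1 or more. No member is a marker, so the gate does not use the genes described here. The gates named 5207 cells of 15 types, 694 cells passed no gate and 194 passed more than 1 with too short a lead. SGC-like cells numbered 58, 414, 536 and 257 in control 1, control 2, injury 1 and injury 2, endothelial-like cells 56, 174, 121 and 102, and libraries shared at most 6 barcodes pairwise. The libraries numbered 2 were deeper, with medians of 4054 and 4845 UMIs per filtered cell against 2775 and 3110. Levels are given as CPM, the UMIs of a gene scaled to a total of 1e+06 UMIs over the summed cells, and errors are SD over libraries with at least 10 cells of the type. UMI counts from the 3' end are compared here between cell types and not between genes.

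*Ednrb* was highest in SGC-like cells, *Ednra* in pericyte-like and smooth muscle-like cells, *Edn1* in endothelial-like cells, and *Edn3* in barrier-like and fibroblast-like cells. By mean level *Ece1* was highest in endothelial-like cells, followed by nonmyelinating Schwann-like cells (6 UMIs in 2 libraries) and SGC-like cells. To ask which type carried which gene, summed UMIs were fitted with edgeR's quasi-likelihood test, each type against the mean of the others, and a call needed both an adjusted p below 0.05 and a change of at least 2 on the log2 scale. Of the 5 members, 4 passed the filter on low counts, *Edn3* did not, and 8 of the 48 combinations of these 4 members with 12 types were called higher. The share of all 7451 tested genes called higher was 11.1% in SGC-like, 11.3% in endothelial-like, 11.4% in smooth muscle-like, 10.8% in pericyte-like, 12.3% in fibroblast-like and 11% in macrophage-like cells. In the types without a member called it was 6.12% in erythroid-like, 6.33% in nonmyelinating and 9.34% in myelinating Schwann-like, 9.57% in monocyte-like, 9.89% in neutrophil-like and 12.9% in neuron-like cells. The plot of levels by type and library shows all 5.

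**Figure D1:**
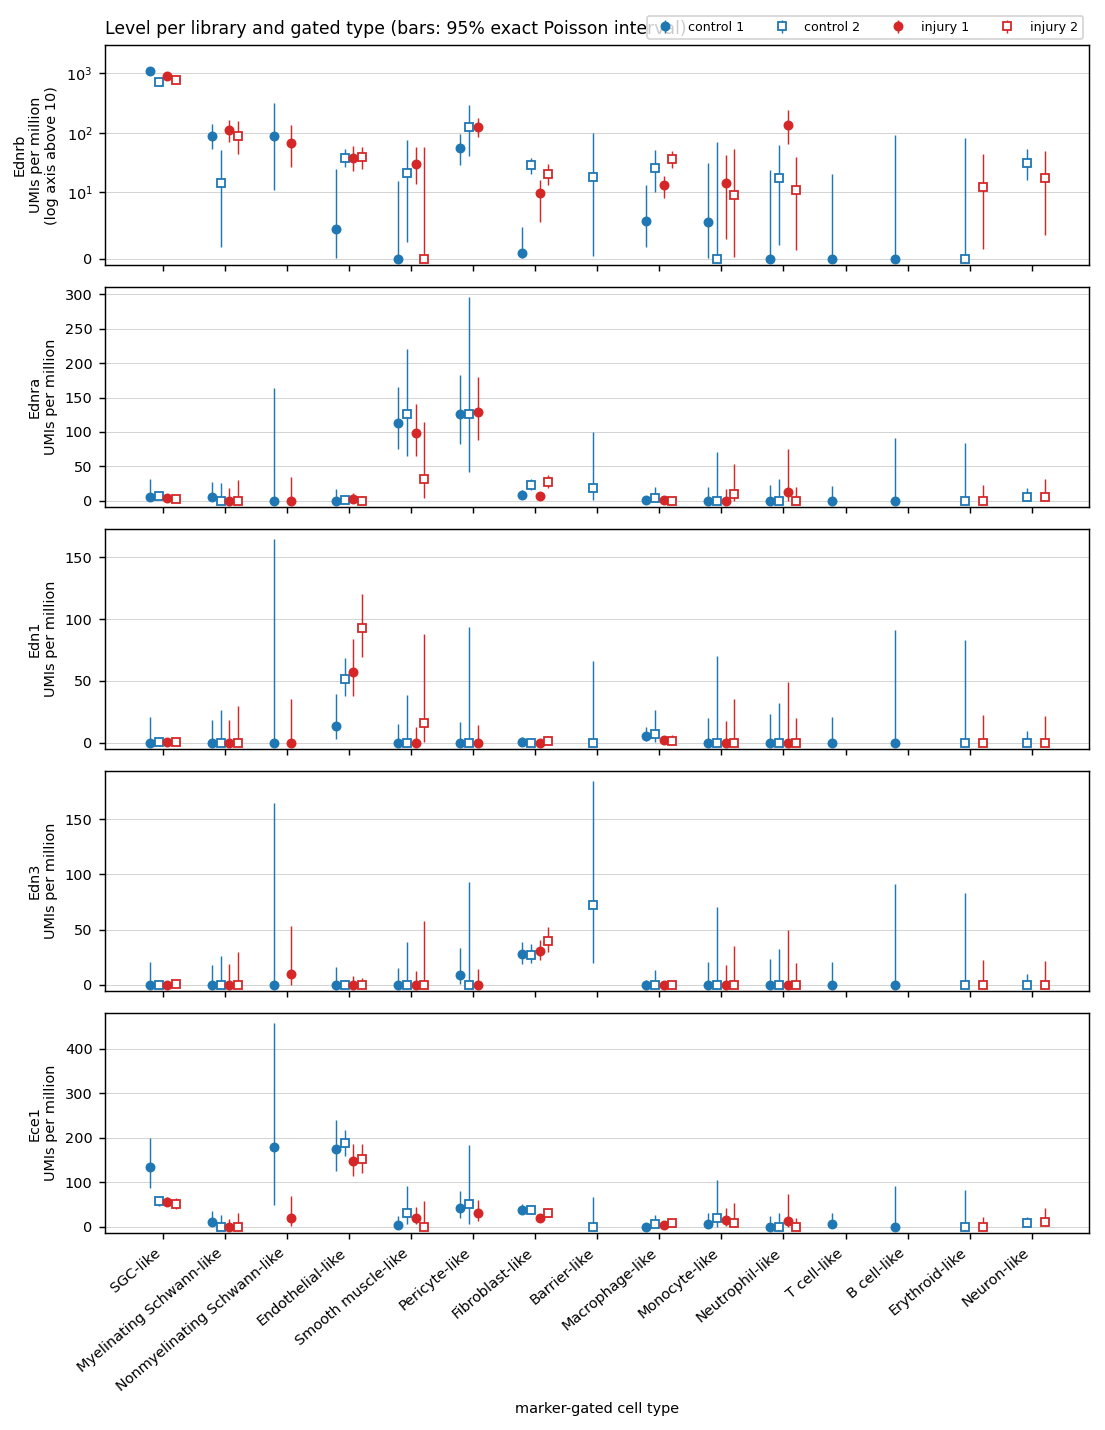
Level of each gene in CPM (y axis, log above 10 for *Ednrb* and linear for the others) in every marker-gated type (x axis) with at least 10 cells of a library; points are libraries (blue control, red injury, filled replicate 1, open replicate 2) and bars 95% exact Poisson intervals of the counts. *Ednrb* in SGC-like cells lies between 708 and 1088 in the 4 libraries, above its level in every other type shown.

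*Ednrb* (ENSMUSG00000022122) lies on the minus strand at chr14:103814625-103844402 of GRCm38, and encodes receptor B. In SGC-like cells it was at 1088, 708, 909 and 788 CPM in control 1, control 2, injury 1 and injury 2, a mean of 873 ± 166 (SD, n = 4). The 2 libraries numbered 1 were above the 2 numbered 2, while the conditions overlapped, and the libraries numbered 1 were also the shallower ones, with medians of 2701 and 3367 UMIs per SGC-like cell against 4334 and 5019. Next came pericyte-like cells at 102 ± 40.4 (n = 3), nonmyelinating Schwann-like cells at 78.1 ± 15.8 (n = 2) and myelinating Schwann-like cells at 75.9 ± 42.3 (n = 4), 3 levels that did not differ beyond their spread. All other types had means of 40.6 CPM or less, and no UMI was seen in the 63 T cell-like and 43 B cell-like cells, which for T cell-like cells allows a share of cells with a UMI of up to 4.76%. Intervals and limits of this kind cover counting error only.

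SGC-like cells held 91.8% of the *Ednrb* UMIs in gated cells while making up 24.3% of these cells. By library the share was 82.9% in control 1, where SGC-like cells were 5.33% of the gated cells, and 90.8% to 92.9% in the other 3. Against the mean of the other types the log2 fold change was 5.03 (SE 0.21, edgeR adjusted p = 1.25e-24), and against all other gated cells of each library summed it was 5.21 (SE 0.23, adjusted p = 4.82e-09). *Ednrb* was thus called under either comparison, and over 12 alternatives its log2 fold change stayed between 4.83 and 5.51.

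Receptor B transcripts were found in most SGC-like cells. Of 1265 SGC-like cells, 89.7% held a UMI of *Ednrb* (exact 95% interval 87.9% to 91.3%), with a median of 3 UMIs and a maximum of 22. As this share rises with depth, each cell was also thinned to 1000 UMIs, after which the expected share was 59.9%, 48.6%, 57.3% and 52.7% in control 1, control 2, injury 1 and injury 2. The share as found was 82.8%, 89.6%, 88.4% and 94.2%. Control 1 was thus lowest as found and highest after thinning, while injury 2 was above control 2 in both. The thinned share in fibroblast-like cells, taken as a background type, was 0.115% to 1.72%, at median depths of 3782 to 4530 UMIs.

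**Figure D2:**
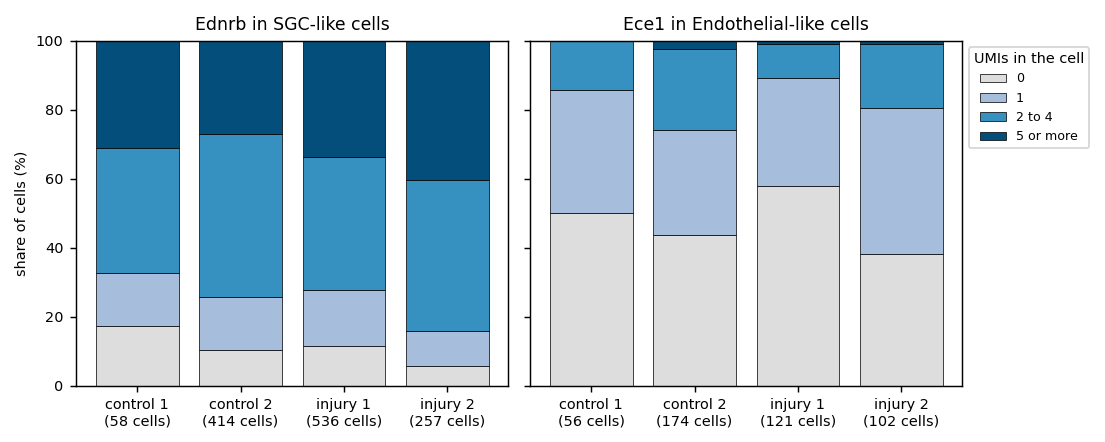
Share of cells (y axis, percent) with 0, 1, 2 to 4, or 5 or more UMIs of *Ednrb* in SGC-like cells and of *Ece1* in endothelial-like cells, 1 bar per library (x axis, with the number of cells). *Ednrb* reaches 5 or more UMIs in 27.1% to 40.5% of SGC-like cells, whereas *Ece1* does so in 0% to 2.3% of endothelial-like cells.

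Glial neighbours carried less of the receptor. Myelinating Schwann-like cells had 89.2, 14.3, 110.4 and 89.7 CPM of *Ednrb*, and the low value of control 2 rests on 2 UMIs in 31 cells. SGC-like cells were higher by 3.49 on the log2 scale (SE 0.36, edgeR adjusted p = 1.17e-10), a contrast in which 9.61% of all genes were called in either direction. For nonmyelinating Schwann-like cells, of which only control 1 (16 cells, 89.2 CPM) and injury 1 (52 cells, 66.9 CPM) had enough, the difference was 4.04 (SE 0.67, adjusted p = 5.27e-05) beside 2.76% of all genes. The 7 SGC markers summed to 1472 and 1969 CPM in these nonmyelinating Schwann-like cells, against 145 to 253 in myelinating Schwann-like cells, and their part in the *Ednrb* level was not tested. The difference from nonmyelinating Schwann-like cells depends on the gate. When 2 markers and a lead of 0.05 were enough, a choice made after the data were seen, the 33 and 92 cells of these libraries had 358 and 249 CPM, and the difference from SGC-like cells was 1.98 (SE 0.48, adjusted p = 0.00535), just under the fold required.

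Cells that passed no gate also held *Ednrb*, at 509, 656, 714 and 308 CPM in control 1, control 2, injury 1 and injury 2. Of these 694 cells, 290 had SGC-like and 146 nonmyelinating Schwann-like as the type with the highest score. They carried 1165 UMIs of *Ednrb*, against 4646 in SGC-like cells, so that the gated values leave out a part of the cells with this receptor.

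*Ednrb* was also set beside *Fabp7*, the leading SGC marker, as its share of the UMIs of both genes. Since *Fabp7* is a marker of the SGC gate, the gate itself favours a lower share in SGC-like cells than in other cells. Differences from the SGC-like share are therefore given as a description. The share was 11%, 4.41%, 6.80% and 5.26% in SGC-like cells of control 1, control 2, injury 1 and injury 2, and 47.8%, 17.2%, 22% and 8.16% in cells that passed no gate. Both kinds of cell were highest in control 1. In nonmyelinating Schwann-like cells the share was 12.5% in control 1 (exact 95% interval 1.55% to 38.3%) and 4.55% in injury 1 (1.85% to 9.14%), whose intervals include the SGC-like values. In control 2 the share was 33.3%, from 4 *Ednrb* and 8 *Fabp7* UMIs of 1 cell. Its interval (9.92% to 65.1%), above the SGC-like value, describes that cell only. Myelinating Schwann-like cells had 75%, 16.7%, 68.8% and 29.7%, and the interval of control 2, from 2 *Ednrb* UMIs, ran from 2.09% to 48.4%.

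Pericyte-like cells had 70.6% in control 1 (44% to 89.7%), 4.5% in control 2 (1.48% to 10.2%) and 53.3% in injury 1 (40% to 66.3%), besides 1 *Ednrb* and 5 *Fabp7* UMIs in injury 2. The interval of control 1 includes the share in cells that passed no gate, and that of control 2 the SGC-like share. That of injury 1 includes neither and lies above both. Endothelial-like cells had 19.9% (14.2% to 26.7%), 41.9% (27% to 57.9%) and 25.8% (17.1% to 36.2%) in control 2, injury 1 and injury 2, and 1 UMI of each gene in control 1. The interval of control 2 includes the share in cells that passed no gate. Those of injury 1 and injury 2 lie above that share and above the SGC-like share of their library. Fibroblast-like cells had 10%, 7.80%, 9.74% and 11.8% in the 4 libraries, with 1 *Ednrb* UMI behind the first. A share above that of SGC-like cells is the side that gating on *Fabp7* favours, and the source of these *Ednrb* UMIs was not tested.

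In pericyte-like cells, which wrap capillaries, *Ednrb* was at 55.8 CPM in control 1, 127 in control 2 (11 cells) and 125 in injury 1. The 7 SGC markers summed to 28, 2788 and 140.2 CPM in these libraries, with *Fabp7* alone at 109 CPM in injury 1. In endothelial-like cells *Ednrb* was at 4.5, 38.1, 38.4 and 38.7 CPM, and the SGC markers at 4.5, 185, 70.4 and 138 CPM. Both were lowest in control 1, and the part of the markers' source in either result was not tested. Smooth muscle-like cells had less *Ednrb* than pericyte-like cells, by 2.48 on the log2 scale (SE 0.75, edgeR adjusted p = 0.0325, beside 3.41% of all genes called). That call was lost without any 1 of the 4 libraries, with adjusted p-values from 0.0746 to 0.145, while the difference itself stayed between -2.25 and -3.65.

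*Ednra* (ENSMUSG00000031616, chr8:77663031-77724464, minus strand) encodes receptor A. In smooth muscle-like cells, the contractile cells of larger vessels, it was at 114, 126, 98 and 31.6 CPM in control 1, control 2, injury 1 and injury 2, the last from 2 UMIs in 13 cells. In pericyte-like cells it was at 126, 127 and 129 CPM in control 1, control 2 and injury 1, and 5 UMIs were found in the 6 cells of injury 2. The means of 92.3 ± 42.1 (n = 4) and 127 ± 1.52 (n = 3) overlap in their libraries, and the direct contrast gave a log2 difference of -0.24 (SE 0.41, edgeR adjusted p = 0.872). Fibroblast-like cells followed at 8.61, 23.2, 6.63 and 27.2 CPM, below smooth muscle-like cells by a log2 difference of 2.59 (SE 0.40, adjusted p = 8.05e-07, beside 14.4% of all genes). The libraries numbered 2 were above those numbered 1 here. Smooth muscle-like and pericyte-like cells shared markers in part. The smooth muscle markers summed to 4016 to 6500 CPM in pericyte-like and 24210 to 30812 CPM in smooth muscle-like libraries. Pericyte markers summed to 3726 to 7273 CPM in smooth muscle-like and 11255 to 18727 CPM in pericyte-like libraries. The part of this overlap in values that both types share was not tested.

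Against the mean of the other types, *Ednra* was higher by 5.55 (SE 0.49) in pericyte-like, 5.28 (SE 0.46) in smooth muscle-like and 2.46 (SE 0.50) in fibroblast-like cells on the log2 scale, with edgeR adjusted p-values of 7.82e-13, 3.33e-13 and 6.93e-05. Nonmyelinating Schwann-like and erythroid-like cells in that mean had no *Ednra* UMI in their tested libraries, so these fitted folds depend in part on the prior count. Outside pericyte-like and smooth muscle-like cells no library in the fit exceeded 27.2 CPM. *Ednra* thus passed the low-count filter only through these 2 types, and their p-values do not allow for this. Nor does the p-value of the contrast between smooth muscle-like and fibroblast-like cells. With no filter the values were 5.44 (SE 0.41), 5.18 (SE 0.39) and 2.50 (SE 0.42). Against all other gated cells of each library summed, the values were 3.55 (SE 0.35) and 3.25 (SE 0.36) for pericyte-like and smooth muscle-like cells, with 3.08% and 3.93% of all genes called higher, and the fibroblast-like value fell to 0.66 (SE 0.66, adjusted p = 0.477). Both mural types kept their call, and fibroblast-like cells did not, nor did they without control 2 (1.85) or injury 2 (1.78). As fibroblast-like cells are many, they still held 91 of the 270 *Ednra* UMIs in gated cells, against 70 in each mural type.

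Receptor A was sparse per cell. A UMI was found in 27.5% of 204 smooth muscle-like cells (exact 95% interval 21.5% to 34.1%) and in 26.9% of 219 pericyte-like cells (21.2% to 33.3%), and 44 of the 56 and 49 of the 59 cells with a UMI had only 1. Thinned to 1000 UMIs, the share was 3.67% to 13.3% in the libraries of smooth muscle-like cells and 11.8% to 13.1% in those of pericyte-like cells. SGC-like cells, the type richest in receptor B, had 27 *Ednra* UMIs in 1265 cells, a level of 2.89 to 7.07 CPM by library. Endothelial-like cells had 2 *Ednra* UMIs in 453 cells, below smooth muscle-like cells by a log2 difference of -6.60 (SE 0.66, edgeR adjusted p = 3.27e-11, beside 17.6% of all genes). That p-value, too, does not allow for *Ednra* having passed the filter only through the mural types. The last exon of *Ednra* overlaps 4933431K23Rik on the opposite strand, which had 9 UMIs in smooth muscle-like cells and none in pericyte-like cells.

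Both receptors were seen together in few cells. In pericyte-like cells, 10 of the 33 cells with an *Ednrb* UMI also had *Ednra*, where the product of the 2 shares gives 8.89 cells. In SGC-like cells 22 cells had both, and the product gives 23.3.

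*Edn1* (ENSMUSG00000021367, chr13:42301476-42307990, plus strand) encodes the precursor of endothelin-1, the vasoconstrictor of the vessel wall. In endothelial-like cells, the lining of the vessels, it was at 13.5, 51.6, 57.6 and 92.6 CPM in control 1, control 2, injury 1 and injury 2, a mean of 53.8 ± 32.4 (n = 4). The spread is wide, and the value of control 1 rests on 3 UMIs in 56 cells. Endothelial-like cells held 131 of the 152 *Edn1* UMIs in gated cells. Macrophage-like cells held 14 more in 1029 cells, and the remaining 7 were spread over 3 types.

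Against the mean of the other types *Edn1* was higher in endothelial-like cells by 6.81 on the log2 scale (SE 0.55, edgeR adjusted p = 2.38e-12), and against all other gated cells of a library by 5.60 (SE 0.40, adjusted p = 3.97e-07, beside 6.02% of all genes). In the other types no library in the fit exceeded 15.8 CPM. *Edn1* thus passed the low-count filter only through endothelial-like cells, and neither p-value allows for this. With no filter the value was 6.81 (SE 0.43). Because many types had no UMI, lower bounds were also taken at a floor of 3 UMIs over the type. With the libraries summed, *Edn1* was at least 10.9-fold higher in endothelial-like than in pericyte-like cells and at least 13.3-fold higher than in myelinating Schwann-like cells. For types with fewer UMIs in total the bound was lower, down to 2.31 for barrier-like cells. In macrophage-like cells *Edn1* was called at 2.66 (SE 0.90, edgeR adjusted p = 0.0172), against a mean that held types at 0. Against all other cells of a library, endothelial-like cells among them, the value was -0.63 (SE 0.68, adjusted p = 0.467). The part of the types at 0 in this call was not tested. The call was lost without control 1 (2.16, adjusted p = 0.1) or control 2 (2.35, adjusted p = 0.0787).

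Few endothelial-like cells carried the ligand at this depth. A UMI of *Edn1* was found in 68 of 453 cells (15%, exact 95% interval 11.8% to 18.6%), of which 37 had 1 UMI and 1 cell of injury 2 had 13. Thinned to 1000 UMIs, the share was 1.41%, 4.65%, 6.06% and 7.49% in control 1, control 2, injury 1 and injury 2, the same order as the CPM. *Ednrb* and *Edn1* met in 7 endothelial-like cells, where the product of the shares gives 7.06.

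*Edn3* (ENSMUSG00000027524, chr2:174760619-174784042, plus strand) encodes the precursor of endothelin-3. In fibroblast-like cells it was at 27.5, 27.2, 30.5 and 40 CPM, a mean of 31.3 ± 5.97 (n = 4), with 172 of the 187 UMIs in gated cells. These libraries were close to each other. No filter on low counts let *Edn3* into the fit, where it was higher in fibroblast-like cells by 6.24 on the log2 scale (SE 0.40, edgeR adjusted p = 1.80e-53, beside 11.2% of all genes). That fold depends in part on the prior count, as many types had no UMI. Adjusted p-values of the unfiltered fit are not comparable with those of the filtered one, being 6.57e-248 for *Ednrb* in SGC-like cells. Against all other gated cells *Edn3* was higher by 5.11 (SE 0.33, edgeR adjusted p = 3.66e-05, beside 5.08%). With 172 of the 187 UMIs in fibroblast-like cells, *Edn3* passed the low-count filter of this comparison only through them. That p-value does not allow for this. None of the 1029 macrophage-like cells had a UMI, which puts *Edn3* at least 50.6-fold higher in fibroblast-like cells, with the libraries summed and a floor of 3 UMIs. This bound depends on the total UMIs of the type at 0. It was 22.7 for endothelial-like, 7.21 for smooth muscle-like and 1.23 for B cell-like cells.

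The other 15 UMIs of *Edn3* included 11 in 28 barrier-like cells, gated by *Cldn1*, *Krt19* and 5 further markers of a type that the study leaves without a name. They were at 72 CPM in control 2 (4 UMIs in 15 cells), 98.8 in injury 1 (1 UMI in 4 cells) and 121 in injury 2 (6 UMIs in 9 cells), and control 1 had none of these cells. Each value was above every fibroblast-like library, but only control 2 had 10 cells. The fibroblast markers summed to 29307.5 CPM in barrier-like and 36039 CPM in fibroblast-like cells of control 2. The part of this overlap in the *Edn3* level was not tested. With the looser gate, chosen after the data were seen, barrier-like cells entered the fit. *Edn3* was higher there by 6.58 (SE 0.90), beside 6.03% of all genes called higher, which is given as a description only. Per cell, a UMI was found in 10.3% of 1246 fibroblast-like cells, and after thinning in 2.36% to 3.95% by library.

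*Ece1* (ENSMUSG00000057530, chr4:137862237-137965229, plus strand) encodes the enzyme that turns the precursor into active endothelin. It was highest in endothelial-like cells, the type that also led for *Edn1*, at 175, 187, 147 and 151 CPM in control 1, control 2, injury 1 and injury 2 (165 ± 19.2, n = 4). SGC-like cells had 135, 57.5, 56.1 and 52.1 CPM, of which the high value of control 1 rests on 24 UMIs in 58 cells. Nonmyelinating Schwann-like cells had 178 CPM in control 1, from 4 UMIs in 16 cells, and 19.1 in injury 1. Fibroblast-like cells had 31.7 ± 8.73 and pericyte-like cells 41.2 ± 9.78 (n = 3), which overlap. Myelinating Schwann-like cells had 2 UMIs in 234 cells, and 9.61% of all genes separated them from SGC-like cells, *Ece1* among them at a log2 difference of 4.39 (SE 0.67, edgeR adjusted p = 9.57e-07). Between SGC-like and nonmyelinating Schwann-like cells the difference in *Ece1* was 0.15 to 1.00 over 6 alternatives, under the fold required in each.

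Against the mean of the other types *Ece1* was higher by 4.06 (SE 0.25, edgeR adjusted p = 9.94e-19) in endothelial-like and by 2.70 (SE 0.28, adjusted p = 4.58e-11) in SGC-like cells on the log2 scale. Against all other gated cells of each library summed, the endothelial-like value was 2.41 (SE 0.15, adjusted p = 1.48e-07) and remained called, while the SGC-like value was 0.86 (SE 0.24, adjusted p = 0.00971), under the fold required, as it was without injury 2 (1.98 against the mean of the other types). SGC-like cells stayed below endothelial-like cells by a log2 difference of -1.25 (SE 0.21, adjusted p = 2.08e-06, beside 21.1% of all genes called), also under that fold. A UMI of *Ece1* was found in 53% of endothelial-like and 21.7% of SGC-like cells, and in 14% to 16% and 4.72% to 12.6% of them by library after thinning. In SGC-like cells *Ece1* and *Ednrb* met in 247 cells, where the product of the shares gives 246.

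**Figure D3:**
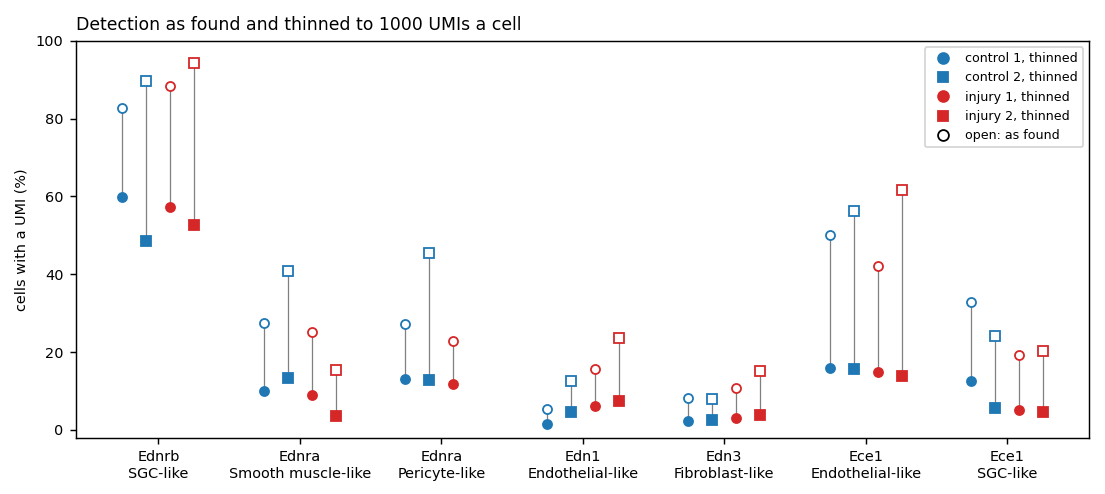
Share of cells with a UMI (y axis, percent) for the leading type or types of each gene (x axis), per library; filled points are thinned to 1000 UMIs a cell, open points are as found, and a line joins both. *Ednrb* in SGC-like cells keeps 48.6% to 59.9% after thinning, and no other pair of gene and type shown exceeds 16% in any library.

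Neurons are large cells, and the upper limits on UMIs and genes together removed most of them, leaving 71 neuron-like cells with a UMI total of 624022. Of *Edn1* and *Edn3* none had a UMI. Without these upper limits there were 304 neuron-like cells, with 125 UMIs of *Ednrb* (2.94 to 22.9 CPM by library), 19 of *Ednra* (0.65 to 4.91), 136 of *Ece1* (10.6 to 19.6) and 1 of *Edn3*. The level of *Ednrb* there was in the range of fibroblast-like cells. The sister enzyme gene *Ece2* was at 53, 55.8, 45.4 and 39.3 CPM in these neurons, and the third ligand gene, *Edn2*, had 4 UMIs in all.

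Genes of the pathway were counted from 6 lists of 60 genes. The lists covered receptor coupling, the response of the vessel wall, peptide processing and regulators of receptor B. The fit, with its low-count filter, tested 4 of 11 genes of processing and clearance and 15 of 16 of G proteins and receptor regulation. It tested 9 of 13 of phospholipase C and calcium, all 8 of contraction, 5 of 7 on prostacyclin and nitric oxide, and 3 of 5 regulators. Each gene was set against the mean of the other types with edgeR. A gene at 0 in some types has a fold that depends in part on the prior count. By type, 6.12% to 12.9% of all genes were called higher in this way. The share called lower was not taken, so genes called lower are given as a description only. In smooth muscle-like cells, 5 of the 9 tested genes of phospholipase C and calcium signalling were called higher, with a median log2 fold change of 2.22 beside 0.12 over all genes. They were *Plcb1* and *Plcb4*, phospholipases that the receptor's G protein activates, *Itpr1*, the calcium release channel of the store, and the cation channel genes *Trpc1* and *Trpc6*. In pericyte-like cells *Itpr1*, *Trpc1* and *Trpc6* were called, with *Trpc6* higher by 7.15 (SE 0.72, adjusted p = 4.53e-09). Myelinating Schwann-like cells also had 3 of the 9 called, *Plcb1*, *Itpr3* and the kinase gene *Prkca*, with a median of 1.78 beside 0.04 over all genes, and SGC-like cells had *Itpr3* (4.18, SE 0.35), with a median of 1.02 beside 0.23. *Plcb1* was called as well in endothelial-like, *Prkca* in fibroblast-like, and *Trpc1* and *Prkce* in neuron-like cells. *Prkcd* was called lower in endothelial-like and *Plcb4* in macrophage-like cells. Of the 8 contraction genes, 3 were called in smooth muscle-like cells, *Mylk* (7.40, SE 0.19), which encodes myosin light chain kinase, *Ppp1r14a*, an inhibitor of myosin phosphatase, and *Ppp1r12a*, a subunit of it. In pericyte-like cells 2 of the 8 were called, *Mylk* (5.05, SE 0.29) and *Ppp1r14a* (5.46, SE 0.53). These 2 genes were also called in fibroblast-like cells, at 4.48 (SE 0.23) and 3.30 (SE 0.48), and *Mylk* in endothelial-like cells at 2.1 (SE 0.37). *Rock1* was called lower in neuron-like and *Arhgef12* in neutrophil-like cells.

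Of the 15 tested genes of G proteins and receptor regulation, 1 was called higher in smooth muscle-like cells, beside 11.4% of all genes. It was *Rgs4* (5.90, SE 0.27), a brake on G protein signalling. Pericyte-like cells had 4 called, *Rgs4*, *Rgs2*, *Gnai1* and *Gna11*, beside 10.8% of all genes. Neuron-like cells also had 4, *Rgs4*, *Gnai1*, *Arrb1* and *Gnaq*, and neutrophil-like cells 3, *Rgs2*, *Arrb2* and *Grk6*. *Rgs2* was called in macrophage-like cells with *Arrb2* and in monocyte-like cells alone. The others were *Gnai1* in myelinating Schwann-like, *Rgs3* in endothelial-like and *Arrb1* in erythroid-like cells. *Arrb2*, a beta-arrestin gene, was lower in smooth muscle-like cells by a log2 difference of -2.46 (SE 0.60, edgeR adjusted p = 0.00115). Also called lower were *Gna11* and *Gnaq* in erythroid-like, *Gna12* and *Gna11* in monocyte-like, *Gnai1* and *Gna11* in neutrophil-like, and *Arrb1* in myelinating Schwann-like cells. The median over all genes in these 4 types was -0.92, -0.22, -0.37 and 0.04. *Gna11*, one of the G protein genes that couple both receptors to phospholipase C, was at 2.12 (SE 0.25) in pericyte-like cells and, without a call, at 1.86 (SE 0.24) in smooth muscle-like and 1.02 (SE 0.19) in SGC-like cells. None of these 15 genes was called in SGC-like cells, where the list's median was 0.07 beside 0.23 over all genes.

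In the list on prostacyclin and nitric oxide signalling, 3 of 5 tested genes were called higher in endothelial-like cells, *Ptgis* and *Ptgs1* of prostacyclin synthesis and *Cav1* of caveolae, whose product is known to restrain nitric oxide synthase. In smooth muscle-like cells 4 of the 5 were called and in pericyte-like cells 3, with *Gucy1a3* and *Gucy1b3*, the subunits of the nitric oxide receptor, at 6.98 (SE 0.29) and 7.15 (SE 0.31) in the former. *Ptgis* and *Cav1* were also called in fibroblast-like cells, *Cav1* in myelinating Schwann-like cells, and *Ptgs1* in macrophage-like and neutrophil-like cells. In erythroid-like cells *Cav1* was called lower. Of all genes, 11.3%, 11.4% and 10.8% were called higher in endothelial-like, smooth muscle-like and pericyte-like cells. Of 4 tested genes of peptide processing and clearance, *Mme* and *Mmp2* were called higher in fibroblast-like cells and *Mme* also in myelinating Schwann-like cells. *Ctsa* was called higher in macrophage-like and lower in erythroid-like cells. None was called in endothelial-like, SGC-like or mural cells. *Mme*, whose product neprilysin degrades endothelin, was at 2.28 (SE 0.74, edgeR adjusted p = 0.0119) in fibroblast-like and at 6.73 (SE 0.59) in myelinating Schwann-like cells. Of the 3 tested regulators known to act on receptor B in neural crest, *Sox10*, a glial transcription factor, was called in SGC-like cells at 3.87 (SE 0.24, adjusted p = 1.67e-18), and *Zeb2* was at 1.14 (SE 0.17) there without a call. *Sox10* was called as well in myelinating (3.83, SE 0.33) and nonmyelinating Schwann-like cells (4.09, SE 0.58), the latter with *Zeb2* (2.15, SE 0.32), and the contrasts of SGC-like cells with both Schwann types gave 0.04 (SE 0.30) and -0.20 (SE 0.48) for *Sox10*. *Ets1* was called higher in endothelial-like, pericyte-like and neutrophil-like cells. *Zeb2* was called lower in endothelial-like cells at -2.83 (SE 0.30) and also in erythroid-like and neutrophil-like cells, and *Sox10* was called lower in neuron-like cells. No tested gene of the 6 lists was called after injury in any type, beside 0.011% of all genes in fibroblast-like cells and 0% in the other types.

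The genes whose pattern over the 12 types was most like each member were ranked by Pearson correlation of mean log2 CPM, gate markers left out, as a description only, since types share libraries and depth. For *Ednrb* they were *Tex40*, *Gm16133*, *Psph*, *Hsdl2* and *Rab9*, with r of 0.947 to 0.928 and all highest in SGC-like cells. For *Ednra* they were *Rgs6*, *Casq2*, *Kcne4*, *Pi15* and *Arhgap6* (0.971 to 0.966), highest in mural types. For *Edn1* they were *Fam167b*, *Ifi44*, *Tmem88*, *Cmtm8* and *Mmrn2* (0.988 to 0.964), all highest in endothelial-like cells, and for *Ece1*, *Tspan9*, *Rsf1*, *Ptn*, *Mkl2* and *Trim56* (0.866 to 0.853), of which *Ptn* was highest in SGC-like cells. The pair *Ednrb* and *Ednra* had r = 0.02, and *Edn1* and *Ece1* had r = 0.548.

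The study asked how the cells of the ganglion respond to nerve injury, and the members were therefore compared between injury and control within each type that had 10 cells in all 4 libraries. None of the 12 combinations of member and type that could be tested was called by edgeR's quasi-likelihood test. Among all genes the share called was 0% in endothelial-like, SGC-like, smooth muscle-like, macrophage-like and myelinating Schwann-like cells and 0.011% in fibroblast-like cells. These counts depend on the fit: in macrophage-like cells, 104 genes were called with no filter on low counts and 16 with DESeq2, against 0. At an unadjusted p under 0.05, 97 of 8901 genes passed in SGC-like and 101 of 6116 in endothelial-like cells, *Edn1* being the only member among the 12 combinations. An exact permutation test of 2 against 2 libraries cannot go below p = 0.333.

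*Ednrb* in SGC-like cells differed by 0.02 on the log2 scale between injury and control (SE 0.26, edgeR adjusted p = 0.999989), with 848 CPM after injury against 898 in control and overlapping libraries. In endothelial-like, macrophage-like and myelinating Schwann-like cells the values were 0.53 (SE 0.53), 0.84 (SE 0.77) and 0.81 (SE 0.64), none called. The difference between the SGC-like injury effect on *Ednrb* and the mean of the other types was -1.11 (SE 0.79, adjusted p = 1), so that no difference between types was shown. Of all genes, 0.0355% were called for such a difference in monocyte-like cells and 0% in the other 7 types.

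*Edn1* in endothelial-like cells was higher in both injury libraries than in both controls, 75.1 ± 24.7 against 32.6 ± 26.9 CPM (SD, n = 2 each). The log2 fold change was 1.01 (SE 0.44, edgeR adjusted p = 0.99966), and 9.25% of all genes had both injury libraries on top in this type. Over 11 alternatives the value ran from 0.64 to 2.55. The highest was that without control 2, a fit in which the lone control library is assumed to vary like the injury pair.

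*Ece1* was lower in both injury libraries than in both controls in each of the 3 types tested. The log2 fold changes were -0.20 (SE 0.23) in endothelial-like, -0.51 (SE 0.35) in SGC-like and -0.56 (SE 0.28) in fibroblast-like cells, with edgeR adjusted p-values of 0.99966, 0.999989 and 0.999861. Of all genes, 18.8%, 14.6% and 18.1% had both injury libraries below both controls in these types. In SGC-like cells the difference rests on control 1, since control 2 (57.5 CPM) was close to injury 1 (56.1). *Edn3* in fibroblast-like cells was higher in both injury libraries by 0.42 (SE 0.26, adjusted p = 0.999861), beside 8.82% of all genes. *Ednra* was lower in both injury libraries of smooth muscle-like cells by a log2 difference of -0.69 (SE 0.54, adjusted p = 0.999927, beside 11% of all genes), where injury 2 had 2 UMIs. In all, both injury libraries were above both controls in 4 of the 12 combinations and below them in 4. Over the types and whole libraries, 8.14% to 27.8% of all genes had them above and 5.82% to 18.8% below.

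**Figure D4:**
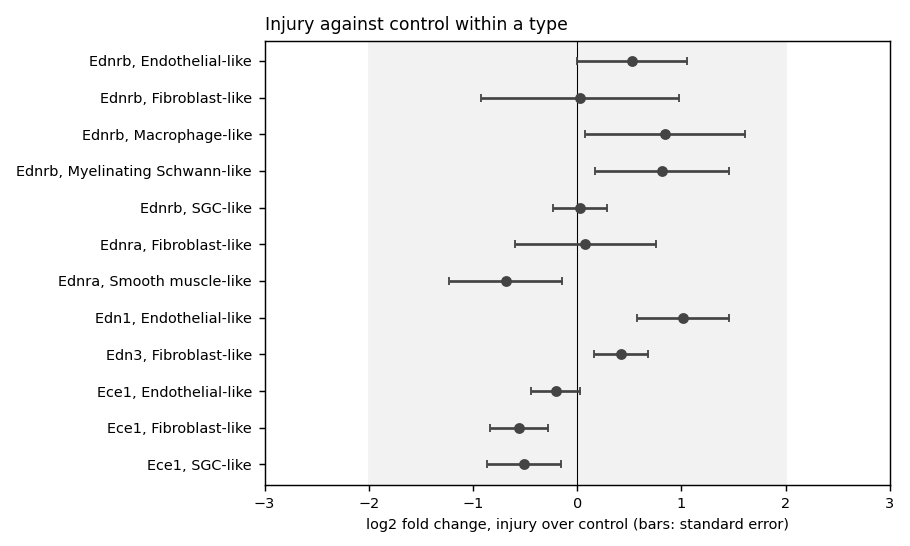
Log2 fold change of injury over control (x axis, bars standard errors) for the 12 combinations of gene and type tested (y axis), from 2 libraries per condition; the grey band is the region under the fold required for a call. All 12 points lie inside the band, from -0.69 for *Ednra* in smooth muscle-like cells to 1.01 for *Edn1* in endothelial-like cells.

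Over all barcodes, whatever their type, *Ednrb* was at 82.7, 223, 270.3 and 178 CPM in control 1, control 2, injury 1 and injury 2, and the SGC-like share of the gated cells was 5.33%, 34.1%, 28% and 25.9%. Control 1 was lowest in both. In such sums, more cells of a type and more RNA per cell cannot be told apart. The log2 fold change after injury was 0.69 (SE 0.54, edgeR adjusted p = 0.99987), and those of *Edn1*, *Edn3*, *Ednra* and *Ece1* were 0.72, 0.18, -0.59 and -0.35, none called beside 0% of all 14478 genes.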

How the data were processed

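The authors deposited raw UMI counts per gene and barcode for 4 libraries of mouse DRG, made with Cell Ranger on mm10 according to the submitters' processing notes, and used Partek afterwards. The annotation release is not given in the sources used here, and gene positions are those of GENCODE for GRCm38. Total counts were 5585909 and 11210875 UMIs in the controls and 11163177 and 9477167 after injury. Only 1 library of each condition has a number in the labels (2), and the other was called 1. Cells with 600 to 15000 UMIs, 500 to 4000 detected genes and a mitochondrial share under 10% were analysed. No doublet caller was run, and cells of more than 1 gate were left out.

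Markers were scored as log counts per 10000 UMIs, scaled to their 90th percentile. The members, the marker lists and the pathway lists were chosen with earlier results of these data known. UMIs were summed per library and type (at least 10 cells) and fitted with edgeR 4.0.16 in R 4.3.3 (TMM, filterByExpr, quasi-likelihood test, Benjamini-Hochberg over all genes), with library as a block between types. The thresholds, an adjusted p of 0.05 and a log2 fold change of 2, are the study's. Standard errors (SE) of edgeR folds were derived as the absolute log2 fold change over the square root of the test's F statistic. They are approximate, above all where a type has few or no UMIs. The fits were tested on simulated data. All 5 members were named in every type, pathway genes where called or where their role in processing is stated, and the 5 genes most like each member. Thinned shares are exact expectations at 1000 UMIs. Alternatives were RLE size factors, DESeq2 1.42.0, no low-count filter, no upper cell limits, narrower and wider gates, no library block, a replicate block, pooled other cells and leaving out each library. The interaction of *Ece1* could not be fitted, since some types had no UMI.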

Additional observations from a re-analysis of the deposited data

How the results depend on the processing

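Depth limits *Edn1*, *Edn3* and *Ednra* most, with 152, 187 and 270 UMIs in gated cells. With the looser gate, chosen after the data were seen, barrier-like and B cell-like cells entered the fit, and *Edn3* passed the filter. It added calls of *Ednrb* in nonmyelinating (log2 fold change 3.36) and myelinating Schwann-like cells (2.45), and of *Edn3* in barrier-like and fibroblast-like cells. *Ece1* was added in nonmyelinating Schwann-like (3.11), pericyte-like (2.20) and fibroblast-like cells (2.19). By type, 4.78% to 13.1% of all genes were called higher with this gate. Members called higher in a type numbered 15 with it and 8 in the main fit. Leaving out each library in turn gave 6 to 8 such calls and 9 to 13 calls in the 7 pairs of types (14 with all libraries, 9 without injury replicate 1). With all libraries, 6.12% to 12.9% of all genes were called higher by type and 2.76% to 21.1% in either direction by pair. These shares were not taken for the refits. For injury, a refit without a library leaves 1 in a condition, so its member calls are not counted here. Without control replicate 2, the injury value of *Ednrb* in fibroblast-like cells was 4.01 on the log2 scale, against 0.03 with all libraries. The mean share of SGC-like cells with an *Ednrb* UMI was 54.6% thinned and 88.7% without thinning.

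The replicate numbers pair nothing known from the labels, and with 2 pairs the block is given only as an alternative: members called after injury remained 0 within types and 0 in whole libraries with the replicate block, although the deviations of same-numbered libraries correlated at 0.221 to 0.662 over genes within types. *Edn1* in endothelial-like cells was then at 1.14 (SE 0.33, edgeR adjusted p = 0.106), and over all genes the block called 50 in macrophage-like, 12 in fibroblast-like, 6 in SGC-like and 2 in endothelial-like cells, against 0, 1, 0 and 0 without it.

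Of the values for single genes, direction and side of the threshold held in 84 of 94 refits between a type and the others, 218 of 234 between pairs of types and 169 of 181 after injury; the causes of the rest were not tested. The sign turned for *Edn1* in macrophage-like cells against pooled other cells (-0.63). It turned for *Ednrb* between smooth muscle-like and fibroblast-like cells with no filter (-0.13), the stricter gate (-0.64), the looser gate (-0.44) and on leaving out a library (-1.66 to 0.52). With the stricter gate it turned for *Edn1* between smooth muscle-like cells and fibroblast-like (-1.55) or pericyte-like cells (-0.058), and leaving out a library gave -0.94 to 1.89 and -0.035 to 3.33. After injury it turned for *Ednrb* in SGC-like cells with the looser gate (-0.0040), and on leaving out a library for *Ednrb* in SGC-like (-0.18 to 0.27), fibroblast-like (-0.83 to 4.01) and macrophage-like cells (-0.23 to 1.84), *Ednra* in fibroblast-like cells (-1.14 to 0.96) and *Edn3* in whole libraries (-0.12 to 0.43). Of these, *Edn1* in macrophage-like cells alone had been called.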
